A study of Drosophila melanogaster with 18 samples.

Results

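The Enhancer of split and Bearded family genes of the fruit fly Drosophila melanogaster are small targets and modulators of the Notch pathway that the embryo begins to transcribe itself. The 8 genes described here were chosen by their FlyBase symbols, out of 9236 genes listed in the tables. They are the Bearded family genes Brd, Tom, Ocho, E(spl)m4-BFM and E(spl)malpha-BFM, and the basic helix-loop-helix (bHLH) genes E(spl)m5-HLH, E(spl)m7-HLH and E(spl)m8-HLH. Whole embryos of 2 genotypes were taken in successive collections of 0-1h, 1-2h and 2-3h of age, and total RNA was sequenced in 3 libraries for each genotype and age, 18 in all. The orb2-delta-zz embryos carry, by their name, an orb2 allele without the zinc-binding ZZ domain; ORB2 is a CPEB family protein that binds mRNA. The wild type embryos were w1118, which the labels call the pre-injected control. The labels give no other allele or treatment for either genotype, and do not say that replicates came from separate cages or parents, so p-values measure only the spread between these samples. The genotype comparison addresses how transcripts depend on the ZZ domain, through which the series' title has ORB2 lower its targets.

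Notch is a receptor that, once bound by a ligand on a neighbouring cell, is cleaved and releases a fragment that enters the nucleus. There it joins the DNA-binding protein Su(H) and switches on target genes, among which the E(spl) bHLH genes are the best known. Their proteins are repressors that recruit the corepressor Groucho and keep cells from taking a neural fate. Bearded family proteins act on the sending side of the signal: they bind the ubiquitin ligase Neuralized and hold back the ligand endocytosis that it drives. In the early embryo Bearded family genes are transcribed in the ectoderm and repressed by Snail in the mesoderm, which confines Notch signalling to the mesectoderm at the border.

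Values are normalized counts, scaled by the authors within each time point, or TPM, which also corrects for transcript length and allows levels of different genes to be compared. Read depth per library is unknown: the values are not whole multiples of 1 read, so no counting interval is given. The tables listed 7617, 8188 and 9141 genes at the successive time points. As markers of the tissue, 7 of 7 zygotic embryo genes and 5 of 6 maternal ones were matched and listed at every time point, and 0 of 7 ovarian follicle genes were listed at any. Normalized counts of orb2 at 0-1h were between 2133 and 2388 in orb2-delta-zz and between 2698 and 2916 in wild type (log2 fold change -0.35, limma adjusted p = 0.00233), a sum over the entire gene that says nothing of the deleted domain. Wild type libraries stood apart from each other in the family. All 8 members were above their wild type mean in replicate 1 of 1-2h and of 2-3h, and all 8 were below it in replicate 2 of 1-2h and replicate 3 of 2-3h. Values without a library are given where its removal changes a call.

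In the Ensembl annotation of BDGP6.54 all 8 genes have no intron, against 11.8% of the annotated genes listed at 2-3h. Their longest annotated transcripts run from 532 bases for Brd to 1193 for Ocho, with a median of 825.5 against 2058 for all genes listed at 2-3h. No source used here names the authors' build. The 3 genes of the Bearded complex share the plus strand of chromosome 3L within 6697 bases: Tom (FBgn0026320) from 14969344 to 14970306, Brd (FBgn0000216) from 14972667 to 14973198 and Ocho (FBgn0040296) from 14974848 to 14976040. The other 5 lie in the Enhancer of split complex on chromosome 3R, within 30116 bases. E(spl)malpha-BFM (FBgn0002732) runs from 26010893 to 26011568 on the plus strand, E(spl)m4-BFM (FBgn0002629) from 26023821 to 26024579 on the minus strand and E(spl)m5-HLH (FBgn0002631) from 26028854 to 26029735 on the minus strand. E(spl)m7-HLH (FBgn0002633) runs from 26037038 to 26038019 and E(spl)m8-HLH (FBgn0000591) from 26040240 to 26041008, both on the plus strand. This annotation has 0 genes that overlap any of the 8. Whether that holds in the build behind the authors' counts is unknown.

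All 8 members were listed at 1-2h and 2-3h. At 0-1h 6 were listed, and E(spl)malpha-BFM and E(spl)m8-HLH were not in the table. Levels climbed steeply over the 3 hours in both genotypes. For each of the 6 members listed at 0-1h and 1-2h, and each of the 8 listed at 1-2h and 2-3h, every library of the later time had a higher TPM than every library of the earlier time, in orb2-delta-zz and in wild type. The tables were normalized separately, so these changes were not tested.

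Tom, a Bearded family gene whose name stands for Twin of m4, was the most abundant member throughout. Its TPM was 14.6 ± 5.21, 109 ± 16.5 and 904 ± 75.1 at the 3 successive time points in orb2-delta-zz, and 30.4 ± 4.28, 140.0 ± 53.6 and 772 ± 310.4 in wild type (SD, n = 3 each). The mean at 2-3h was thus 62.1 times that at 0-1h in orb2-delta-zz and 25.4 times in wild type. By 2-3h Tom ranked 150 among 9141 genes by mean TPM in orb2-delta-zz and 164 in wild type, while E(spl)m8-HLH ranked 6376 and 6191. The smallest climb among the members listed at all times, judged in orb2-delta-zz, was that of E(spl)m4-BFM, with a ratio of means at 2-3h over 0-1h of 19.1 in orb2-delta-zz and 15.02 in wild type. In wild type the smallest was that of E(spl)m7-HLH, at 13.5, against 28.0 in orb2-delta-zz.

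**Figure D1:**
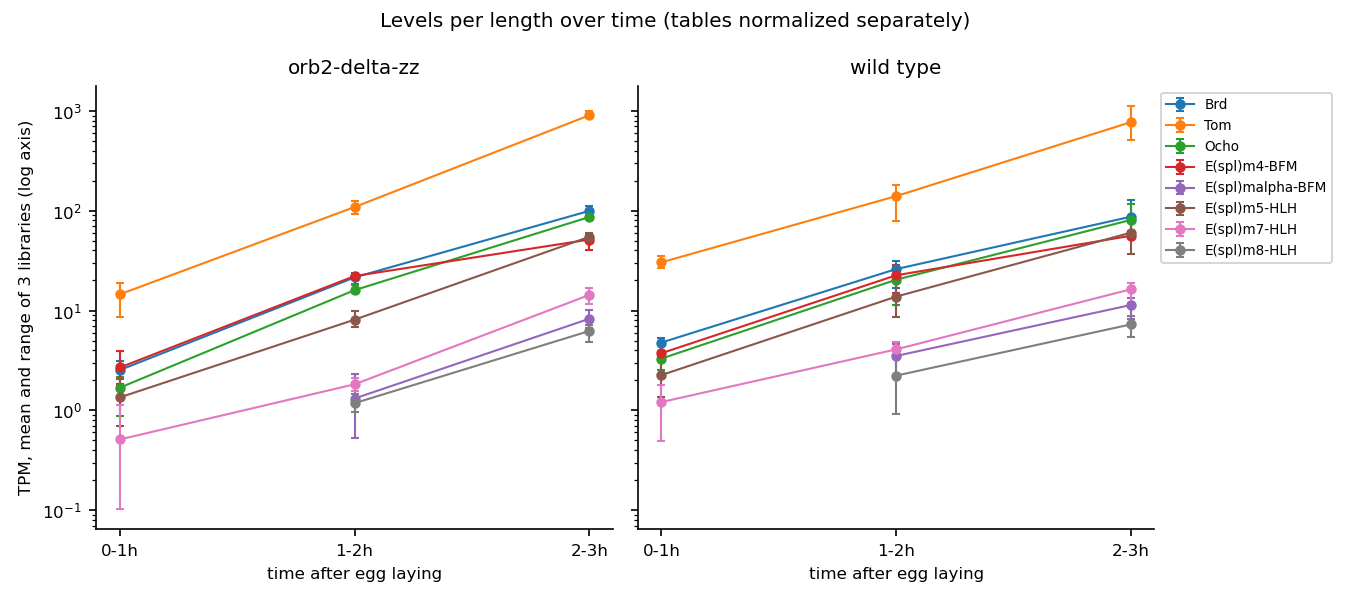
TPM of each member (log axis) at the 3 time points in orb2-delta-zz on the left and wild type on the right; points are means of 3 libraries and bars run from the lowest to the highest library. Tom lies above every other member at each time, and 2 members have no point at 0-1h because they were not listed.

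At 2-3h the order of mean TPM was the same in both genotypes. In orb2-delta-zz Tom was followed by Brd (99.6 ± 14.5), Ocho (86.5 ± 1.31), E(spl)m5-HLH (54.7 ± 4.53), E(spl)m4-BFM (51.4 ± 9.64), E(spl)m7-HLH (14.3 ± 2.62), E(spl)malpha-BFM (8.27 ± 1.73) and E(spl)m8-HLH (6.24 ± 1.24; SD, n = 3 each). In wild type Brd was at 87.05 ± 36.0, Ocho at 80.8 ± 31.3, E(spl)m5-HLH at 60.3 ± 24.0, E(spl)m4-BFM at 56.1 ± 2.86, E(spl)m7-HLH at 16.3 ± 3.95, E(spl)malpha-BFM at 11.4 ± 2.80 and E(spl)m8-HLH at 7.26 ± 1.71 (SD, n = 3 each). The libraries of Brd and Ocho overlapped in both genotypes, as did those of E(spl)m5-HLH and E(spl)m4-BFM and those of E(spl)malpha-BFM and E(spl)m8-HLH, so their ranges over libraries do not separate. In wild type Ocho also overlapped E(spl)m5-HLH, and E(spl)m7-HLH overlapped E(spl)malpha-BFM. Compared within each library, Brd was above Ocho in 4 of 6 and E(spl)m5-HLH above E(spl)m4-BFM in 4 of 6. Ocho was above E(spl)m5-HLH, E(spl)m7-HLH above E(spl)malpha-BFM and E(spl)malpha-BFM above E(spl)m8-HLH in 6 of 6 libraries, an order that was not tested. Tom stood clear of all other members.

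At 0-1h Tom was lower in orb2-delta-zz, and the other 5 members listed did not pass the test. All 6 members listed had a negative log2 fold change, with a median of -0.997 against -0.0080 over all 7559 genes tested. Of the 6, limma called 1, Tom, where 21.3% of all genes were called and 10.1% were called lower. At an unadjusted p under 0.05 it was 3 of 6, against 34.4% of all genes. For 3 of 6 members, Brd, Tom and Ocho, every orb2-delta-zz library lay below every wild type library, which held for 18.9% of all genes tested. In bulk embryos, fewer cells that express a gene and less RNA per cell cannot be told apart.

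Tom at 0-1h had normalized counts of 297, 156 and 353 in orb2-delta-zz replicates 1 to 3, against 496, 700.0 and 528 in wild type. The groups did not overlap, and the highest orb2-delta-zz library was below the lowest wild type one. The log2 fold change was -1.16 (SE 0.267, 95% interval -1.76 to -0.56, limma adjusted p = 0.0132). It stayed past the threshold in all 13 alternative fits that gave it a p, with fold changes from -1.40 to -0.81 and adjusted p from 0.00565 to 0.0349.

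The neighbours of Tom in the Bearded complex had differences of like size that did not pass. Brd, the founding member of the family, was at 23.9, 13.1 and 21.5 in orb2-delta-zz and at 40.4, 43.0 and 29.5 in wild type (log2 fold change -0.94, SE 0.348, limma adjusted p = 0.0857). Ocho, also a Bearded family gene, was at 32.9, 14.3 and 37.0 in orb2-delta-zz and at 59.4, 67.2 and 41.7 in wild type (log2 fold change -1.05, SE 0.387, limma adjusted p = 0.0831). Neither gene's groups overlapped. On TPM in place of normalized counts both passed, with limma adjusted p of 0.0190 for Brd and 0.0480 for Ocho. That was the 1 fit, of 12 alternatives that gave each a p, in which either was called. With 1 library left out the limma adjusted p ran up to 0.206 for Brd and 0.2 for Ocho. E(spl)m4-BFM, the Bearded family gene of the other complex after which Tom is named, was at 25.1, 30.4 and 56.2 in orb2-delta-zz, against 54.7, 55.8 and 47.5 in wild type, so that its groups overlapped through orb2-delta-zz replicate 3 (log2 fold change -0.57, 95% interval -1.30 to 0.15, limma adjusted p = 0.246).

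The bHLH repressor genes scattered widely at 0-1h. Like Brd, Ocho and E(spl)m4-BFM, they were near the lower end of the table. For these members between 5.72% and 14.98% of the genes listed had a lower mean TPM. E(spl)m5-HLH had normalized counts of 22.2, 11.4 and 35.6 in orb2-delta-zz, against 23.0, 65.1 and 31.3 in wild type (log2 fold change -0.76, SE 0.496, limma adjusted p = 0.313). E(spl)m7-HLH had 5.78, 1.87 and 21.5 in orb2-delta-zz, against 25.1, 36.3 and 9.18 in wild type (log2 fold change -1.50, SE 0.788, limma adjusted p = 0.212). Removal of 1 library moved that value to between -2.28, without orb2-delta-zz replicate 3, and -0.80, without orb2-delta-zz replicate 2, with no call. Replicate 2 was the lowest orb2-delta-zz library and replicate 2 the highest wild type library for both, and the groups overlapped for both.

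**Figure D2:**
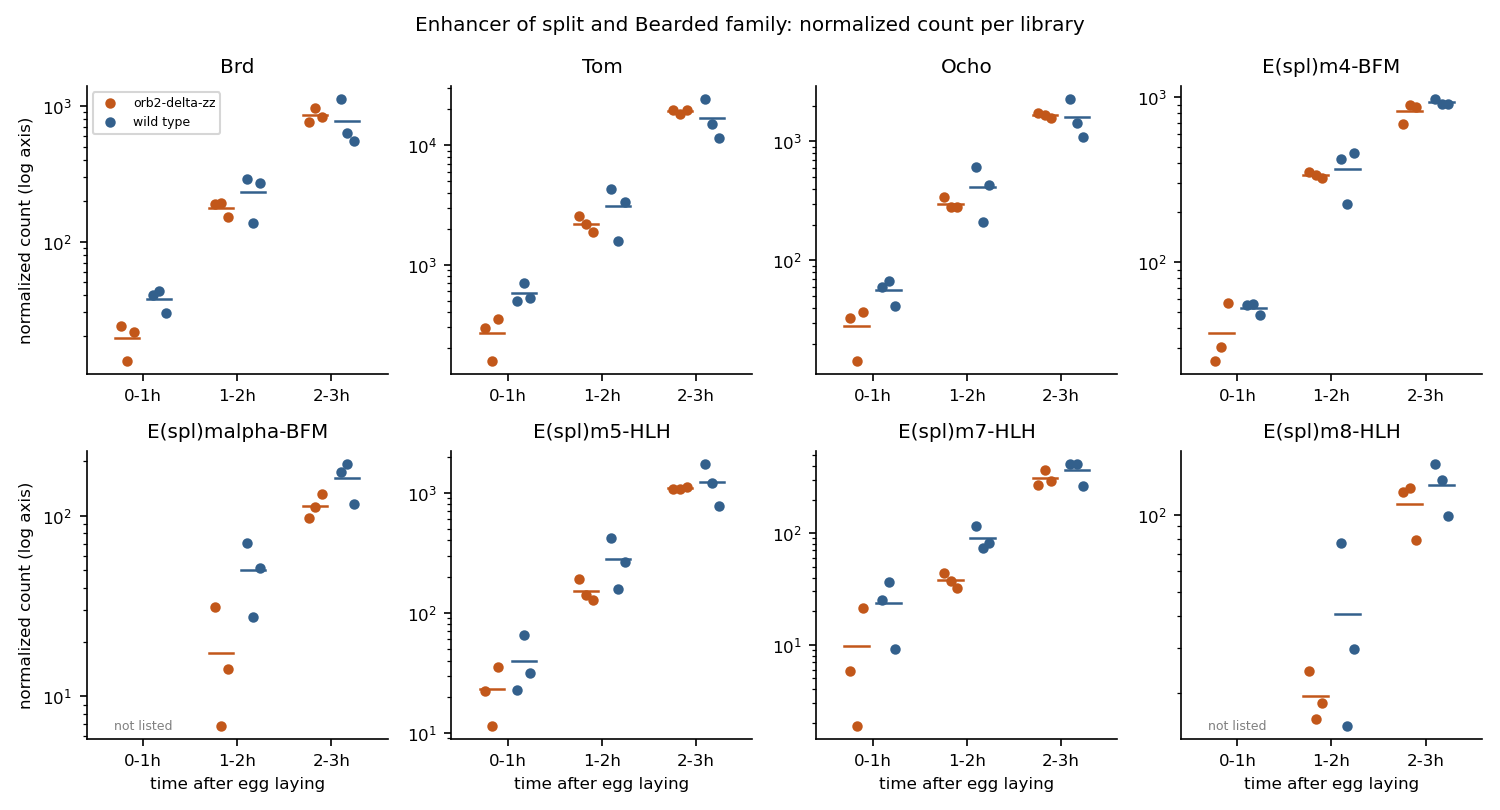
Normalized count per library (log axis, a separate scale for each gene) for the 8 members at the 3 time points, with orb2-delta-zz in orange left of wild type in blue; points are libraries in replicate order and bars are group means. The groups of Brd, Tom and Ocho separate at 0-1h, and those of E(spl)m7-HLH at 1-2h.

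Other signals were also low in the orb2-delta-zz libraries of 0-1h. The median deviation of the members from their wild type mean was -0.83, -1.72 and -0.29 on the log2 scale in orb2-delta-zz replicates 1, 2 and 3, and between -0.26 and 0.29 in the wild type libraries. A list of 16 genes of older embryos, 4 of them listed at 0-1h, summed to 7.63, 2.65 and 22.9 TPM in the same orb2-delta-zz libraries, against 20.2 to 32.1 TPM in wild type, and 20.5 of the 22.9 TPM in orb2-delta-zz replicate 3 came from Obp99a. Of its muscle genes, Act57B, Mhc, Tm2 and up were not listed, and neither was the glial gene repo. Mlc2, a myosin light chain gene too low to be tested, was at 0, 2.74 and 2.72 normalized counts in orb2-delta-zz, against 14.0, 20.0 and 18.8 in wild type. Act87E was at 20.5, 5.78 and 56.9 in orb2-delta-zz, against 45.3, 71.7 and 35.6 in wild type, and did not pass. The median deviation of the list was -1.53, -2.59 and -0.54 in orb2-delta-zz replicates 1 to 3, and between -0.01 and 0.03 in wild type. Of the 3 genes of this list that were tested, elav, a marker of neurons, was called lower (log2 fold change -1.27, limma adjusted p = 0.0131; not called without wild type replicate 1). The 7 zygotic marker genes had median deviations of -0.14, -0.56 and -0.67 in orb2-delta-zz replicates 1 to 3. Replicate 3 was thus the lowest for these genes, and replicate 2 the lowest for the family and for the older embryo list. The part of these signals in the values of Tom and the other members was not tested.

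At 1-2h all 8 members had a negative log2 fold change, with a median of -0.56 against -0.0074 over 8095 genes tested, and E(spl)m7-HLH passed the test. It was called among 8 members, where 7.37% of all genes were called and 3.85% were called lower; 2 of 8 had an unadjusted p under 0.05, against 24.2% of all genes. It had normalized counts of 43.7, 36.9 and 32.4 in orb2-delta-zz, against 117, 73.6 and 80.9 in wild type. The groups did not overlap, as was the case with orb2-delta-zz below for 16.3% of all genes tested, and the other 7 members all overlapped. The log2 fold change was -1.22 (SE 0.275, 95% interval -1.86 to -0.58, limma adjusted p = 0.0392). The call was lost in 5 of the 6 fits that left out 1 library, every one but that without wild type replicate 2, with fold changes between -1.36 and -1.03 over the 6 and adjusted p of up to 0.161. With the replicate number as a block the adjusted p was 0.0528, also without a call.

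The values of the other members at 1-2h depended on wild type replicates 1 and 2. Tom was at 2573, 2182 and 1868 in orb2-delta-zz, against 4299, 1587 and 3347 in wild type, so replicate 2 was the only wild type library below the orb2-delta-zz libraries (log2 fold change -0.37, limma adjusted p = 0.540). Ocho was at 338.7, 279.9 and 279.9 in orb2-delta-zz, against 608, 208 and 428 in wild type (log2 fold change -0.34, limma adjusted p = 0.605). Brd was at 188, 193 and 151 in orb2-delta-zz, against 288, 138 and 270.0 in wild type (log2 fold change -0.32, limma adjusted p = 0.557). Without that library 5 members were called, 1261 genes were called in all, and the log2 fold changes were -0.79 for Tom (limma adjusted p = 0.0144), -0.77 for Ocho (0.0286), -0.66 for Brd (0.0384) and -1.15 for E(spl)m5-HLH (0.0208). Without wild type replicate 1 the fold changes were close to 0 for these 3 Bearded complex genes, at -0.075 for Tom, -0.001 for Ocho and -0.127 for Brd (limma adjusted p of 0.899, 0.999 and 0.818). The 7 zygotic marker genes were low in wild type replicate 2, with a median deviation of -0.84 against 0.39 and 0.46 in wild type replicates 1 and 3, and between 0.32 and 0.63 in orb2-delta-zz. All 7 had a positive log2 fold change at 1-2h (median 0.46), while the 8 family members were all negative. The part of these marker levels in the family's values was not tested.

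E(spl)malpha-BFM had the largest fold change at 1-2h on few counts. It was at 31.1, 6.86 and 14.1 in orb2-delta-zz, against 70.9, 27.5 and 51.6 in wild type (log2 fold change -1.60, SE 0.582, 95% interval -2.96 to -0.25, limma adjusted p = 0.150). The groups overlapped between orb2-delta-zz replicate 1 and wild type replicate 2. E(spl)m8-HLH, a Notch target gene, was at 24.4, 15.8 and 18.3 in orb2-delta-zz, against 77.4, 14.9 and 29.9 in wild type (log2 fold change -0.74, limma adjusted p = 0.478), with wild type replicate 1 far above the rest. E(spl)m5-HLH was at 190.1, 140.3 and 129 in orb2-delta-zz, against 423, 159 and 267 in wild type (log2 fold change -0.79, 95% interval -1.60 to 0.02, limma adjusted p = 0.215). E(spl)m4-BFM was at 353, 337 and 323 in orb2-delta-zz, against 423, 225 and 458 in wild type, which gave the fold change nearest to 0 (log2 fold change -0.06, 95% interval -0.68 to 0.55, limma adjusted p = 0.910). It turned positive on TPM, at 0.02, and without wild type replicate 1 or 3, at 0.07 or 0.13.

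The older embryo list was also lower in orb2-delta-zz at 1-2h. With 5 of its 16 genes listed it summed to between 22.3 and 53.1 TPM in orb2-delta-zz and between 84.9 and 201 TPM in wild type, and all 5 genes tested had a negative log2 fold change. Obp99a alone gave 43.7, 40.4 and 16.0 TPM in orb2-delta-zz, against 183, 80.8 and 72.0 TPM in wild type. Within wild type the list's median deviation was 0.37, 0.29 and -0.55 in replicates 1 to 3, where that of the family was 0.60, -0.73 and 0.16. Replicate 1 was the highest for both, and the lowest was replicate 3 for the list and replicate 2 for the family. The actin gene Act87E was called lower (log2 fold change -1.40, limma adjusted p = 0.0421). Its call was lost on TPM, after removal of wild type replicate 1 and after removal of each orb2-delta-zz library. The part of older embryos in the members' values was not tested.

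At 2-3h no member passed the test. The median log2 fold change of the 8 members was -0.15 against -0.0001 over 9014 genes tested, with 5 negative and 3 positive. Limma called 0 of 8, where 3.28% of all genes were called, and at an unadjusted p under 0.05 it was also 0 of 8, where 16.3% of all genes passed. The 3 positive members were Brd, Tom and Ocho.

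Tom at 2-3h was at 19800, 18210 and 19940 in orb2-delta-zz, against 24420, 15230 and 11430 in wild type. The orb2-delta-zz libraries lay close together, inside the wild type range. The log2 fold change was 0.25 (95% interval -0.36 to 0.87, limma adjusted p = 0.682). Without wild type replicate 1 it was 0.55 and was called (limma adjusted p = 0.0327), in a fit that called 1666 genes in place of 296. Without wild type replicate 3 it was 0.001 (limma adjusted p = 0.999). Brd was at 760, 966 and 831 in orb2-delta-zz, against 1124, 632 and 551 in wild type (log2 fold change 0.21, 95% interval -0.45 to 0.88, limma adjusted p = 0.754). Ocho was at 1721, 1674 and 1577 in orb2-delta-zz, against 2265, 1425 and 1097 in wild type (log2 fold change 0.12, 95% interval -0.49 to 0.73, limma adjusted p = 0.857), and it was negative, at -0.12, without wild type replicate 3. Wild type replicate 1 was the highest library of all 6 for each of these genes.

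All 5 Enhancer of split complex members had negative values with intervals that included 0. E(spl)malpha-BFM was at 96.9, 111 and 131 in orb2-delta-zz, against 175, 193 and 117 in wild type (log2 fold change -0.49, 95% interval -1.09 to 0.11, limma adjusted p = 0.409). E(spl)m4-BFM was at 684, 899 and 876.5 in orb2-delta-zz, against 973, 912 and 903 in wild type, and was the 1 member whose groups did not overlap, as was the case with orb2-delta-zz below for 11.4% of all genes (log2 fold change -0.19, 95% interval -0.54 to 0.16, limma adjusted p = 0.584). The bHLH genes E(spl)m5-HLH, E(spl)m7-HLH and E(spl)m8-HLH had log2 fold changes of -0.11, -0.22 and -0.26, with limma adjusted p of 0.882, 0.699 and 0.699. E(spl)m5-HLH was at 1074, 1071 and 1123 in orb2-delta-zz, against 1736, 1213 and 769 in wild type, and its fold change was positive, at 0.17, without wild type replicate 1. E(spl)m7-HLH was at 267, 368 and 292 in orb2-delta-zz, against 417, 414 and 263 in wild type. E(spl)m8-HLH was at 122, 127 and 79.9 in orb2-delta-zz, against 158, 136 and 98.5 in wild type.

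**Figure D3:**
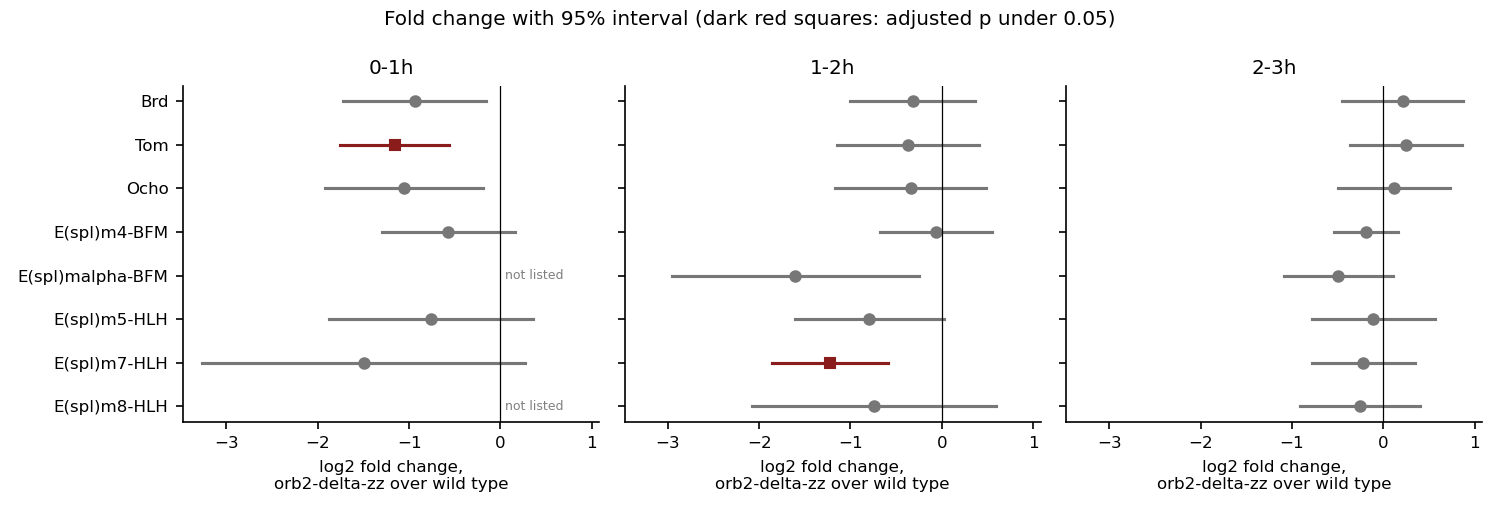
Log2 fold change of orb2-delta-zz over wild type for each member and time point, with 95% intervals from limma; dark red squares passed the adjusted threshold of 0.05. Points lie left of 0 for all members at 0-1h and 1-2h, and Brd, Tom and Ocho lie right of 0 at 2-3h.

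The genotype effect was then compared between time points, as a difference of differences in which a factor per table cancels. For 2-3h minus 0-1h all 6 members tested had a positive difference, 1.41 for Tom (SE 0.445, limma adjusted p = 0.211), 1.15 for Brd (SE 0.415, limma adjusted p = 0.293) and 1.17 for Ocho (SE 0.498, limma adjusted p = 0.399). None of the 6 passed, while 1.31% of the 7482 genes tested did, and at an unadjusted p under 0.05 it was 3 of 6 members against 11.5% of all genes. Without wild type replicate 1 of 2-3h these 3 differences passed, at 1.71, 1.46 and 1.46 with limma adjusted p of 0.0147, 0.0179 and 0.0473, and the fit called 1527 genes in place of 98. For 1-2h minus 0-1h limma called 0 of 6 members and 0.199% of 7533 genes, with differences from -0.03 for E(spl)m5-HLH to 0.78 for Tom and 0 members at an unadjusted p under 0.05, against 6.15% of all genes. For 2-3h minus 1-2h it called 0 of 8 members and 0.225% of 8015 genes, and E(spl)m7-HLH, with a difference of 1.00 (SE 0.349, limma adjusted p = 0.559), was the 1 member at an unadjusted p under 0.05, against 7.15% of all genes.

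At 2-3h the wild type libraries of several members were more scattered than those of orb2-delta-zz, a difference that was not tested. There the highest wild type library was 2.14 times the lowest for Tom, 2.04 times for Brd, 2.06 times for Ocho and 2.26 times for E(spl)m5-HLH. In orb2-delta-zz the same ratios were 1.09 for Tom, 1.27 for Brd, 1.09 for Ocho and 1.05 for E(spl)m5-HLH. E(spl)m4-BFM went the other way, at 1.31 in orb2-delta-zz and 1.08 in wild type. For Tom at 0-1h the ratio was 2.27 in orb2-delta-zz and 1.41 in wild type. Maternal marker genes were also scattered in wild type at 2-3h, with median deviations of -1.22, 0.28 and 0.94 in replicates 1 to 3. In orb2-delta-zz these were -0.15, -0.03 and -0.22. The family's median deviations in the same wild type libraries were 0.43, 0.01 and -0.44. The part of maternal marker levels in the family's scatter was not tested. Across the 6 libraries of 2-3h the Pearson's r of a member with the mean of the other 7 ran from 0.335 for E(spl)m4-BFM to 0.962 for E(spl)m5-HLH, a description over libraries that share their scaling.

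**Figure D4:**
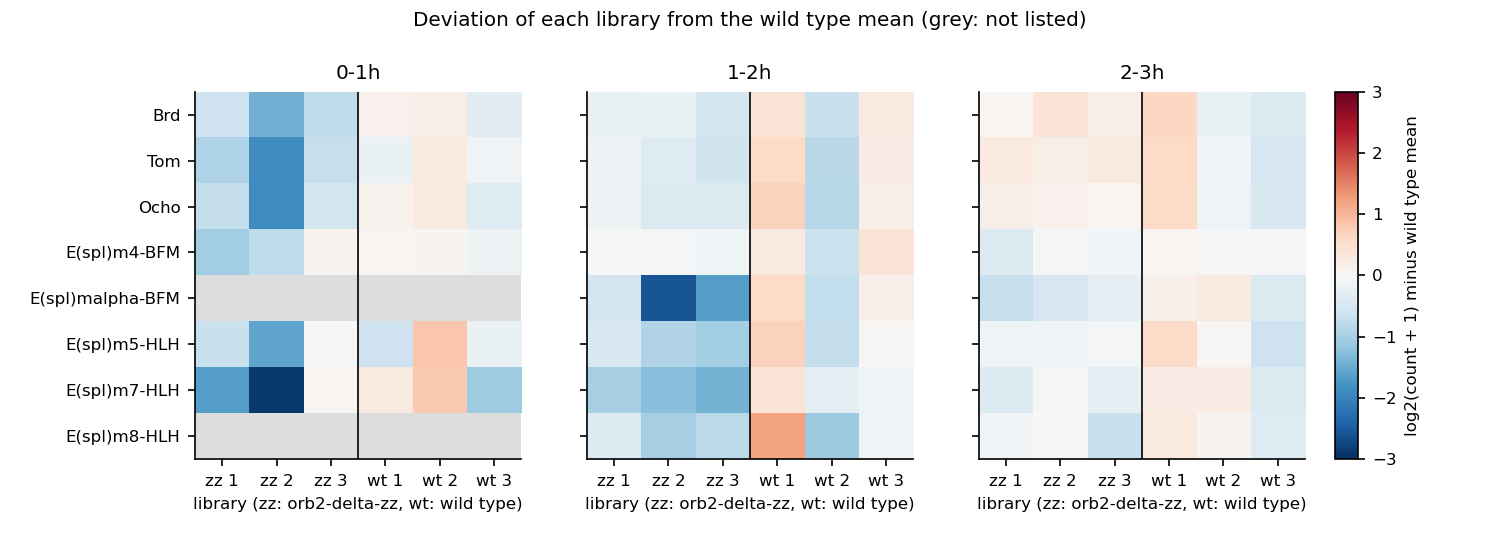
Log2(normalized count + 1) of each member in each library minus its wild type mean, blue for lower and red for higher, with orb2-delta-zz libraries left of wild type at each time point. At 0-1h orb2-delta-zz replicate 2 is the lowest column, and wild type replicates 1 and 2 at 1-2h and 1 and 3 at 2-3h lie on opposite sides of 0 for all 8 members.

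Among the chosen members Tom made up most of the summed TPM at every time. BobA, a Bearded family gene outside that choice, was left out of the sum, as were further bHLH genes of the Enhancer of split complex. The mean TPM of BobA at 2-3h was 947.9 in orb2-delta-zz and 697.2 in wild type, against 903.6 and 771.9 for Tom. The shares thus describe the chosen members only. Tom held 71.3% to 75.4% of the summed TPM of the members in orb2-delta-zz libraries at 2-3h, and 68.8% to 72.3% in wild type. At 1-2h it held 58.6% to 61.3% in orb2-delta-zz and 57.7% to 61.4% in wild type. The 3 bHLH genes together held 5.69% to 6.60% in orb2-delta-zz at 1-2h, against 7.24% to 9.50% in wild type, and 5.95% to 6.538% in orb2-delta-zz at 2-3h, against 7.26% to 8.62% in wild type. At both times every orb2-delta-zz library had a smaller bHLH share than every wild type library, a difference that was not tested. The share also moves with Tom, the largest part of the sum, which had a log2 fold change of 0.25 at 2-3h. Taken singly, each of the 3 bHLH genes overlapped between genotypes at 2-3h, without a call. At 0-1h, where 6 members were listed, the bHLH shares overlapped, at 5.51% to 10.3% in orb2-delta-zz and 5.72% to 10.03% in wild type.

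Among the other genes of the 2 complexes the bHLH genes had the largest negative values. Of 10 symbols 8 were matched, and 1, 5 and 7 were tested at the successive time points. At 1-2h BobA was the only gene tested beside the bHLH genes. All 4 of the remaining bHLH genes, E(spl)mbeta-HLH, E(spl)mgamma-HLH, E(spl)mdelta-HLH and E(spl)m3-HLH, had negative log2 fold changes at 1-2h and at 2-3h, with medians of -1.57 and -1.04. Limma called 1 of the 4 at 1-2h, where 7.37% of all genes were called and 3.85% were called lower. At 2-3h it called 0 of 4, where 3.28% were called and 1.73% were called lower. E(spl)mgamma-HLH, a repressor used in neural stem cells, was called lower at 1-2h, with normalized counts of 18.5, 7.84 and 10.1 in orb2-delta-zz, against 54.9, 50.7 and 43.7 in wild type (log2 fold change -2.03, SE 0.384, limma adjusted p = 0.0214). Its groups did not overlap, as was the case with orb2-delta-zz below for 16.3% of all genes tested at 1-2h. The call was lost without any 1 of 4 libraries, wild type replicates 1 and 3 and orb2-delta-zz replicates 2 and 3 (limma adjusted p of up to 0.0913).

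At 2-3h E(spl)mgamma-HLH was at 46.8, 93.7 and 68.7 in orb2-delta-zz, against 141, 204 and 87.7 in wild type (log2 fold change -1.01, limma adjusted p = 0.263). E(spl)mbeta-HLH at 2-3h was at 48.5, 73.3 and 39.1 in orb2-delta-zz, against 125, 117 and 84.5 in wild type (log2 fold change -1.04, limma adjusted p = 0.149). E(spl)mdelta-HLH at 2-3h was at 68.9, 85.2 and 56.6 in orb2-delta-zz, against 127, 227 and 104 in wild type (log2 fold change -1.05, limma adjusted p = 0.180). For the last 2 genes every orb2-delta-zz library lay below every wild type library, without a call.

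The Bearded family gene BobA lies near Tom on chromosome 3L and did not pass at any time point. At 0-1h it was at 263, 104 and 208 in orb2-delta-zz, against 213, 301 and 241 in wild type (log2 fold change -0.48, limma adjusted p = 0.292). At 2-3h it was at 9718, 9627 and 9359 in orb2-delta-zz, against 9728, 6436 and 5606 in wild type (log2 fold change 0.44, limma adjusted p = 0.347), and it was called without wild type replicate 1 (fold change 0.67 on the log2 scale, limma adjusted p = 0.00752). BobA belongs to a group of near-identical neighbouring copies whose reads may not be separable, so its level is uncertain.

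**Figure D5:**
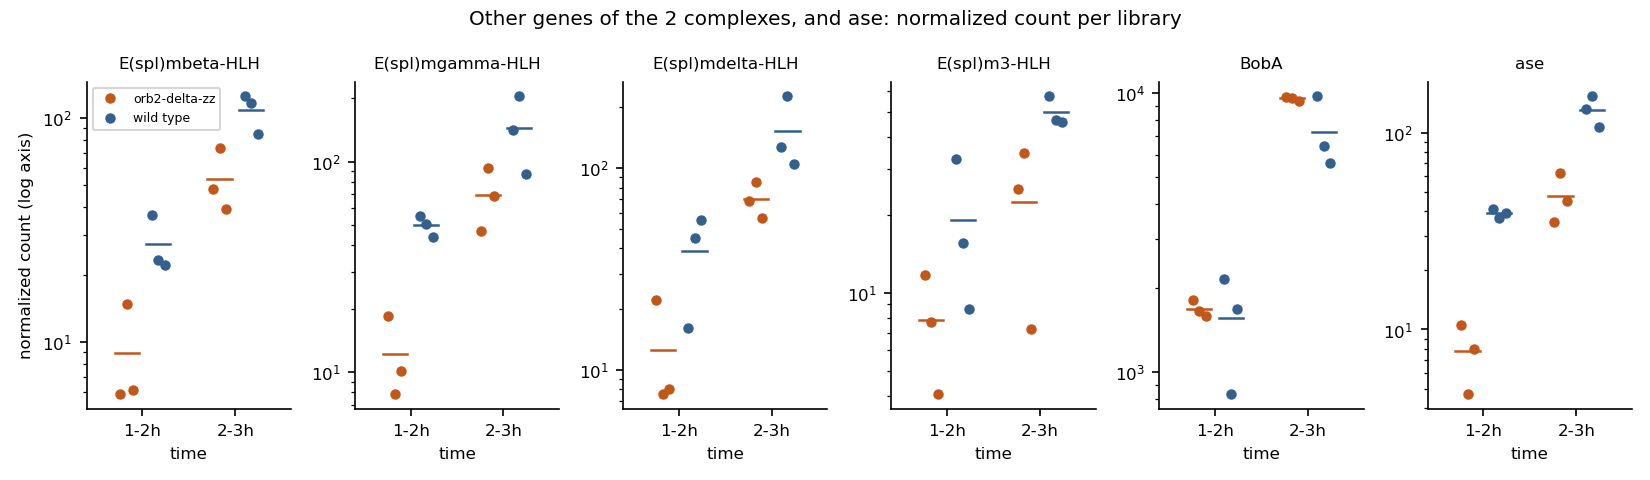
Normalized count per library (log axis, a separate scale for each gene) at 1-2h and 2-3h for 4 further bHLH genes of the Enhancer of split complex, the Bearded family gene BobA and the proneural gene ase; orange orb2-delta-zz points stand left of blue wild type points, and bars are group means. The orb2-delta-zz means lie below the wild type means in all panels but that of BobA.

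The Notch pathway itself was measured with a list of 32 symbols, 30 of them matched. At 0-1h 29 were tested and 2 were called, both lower, with a median log2 fold change of 0.03. That share is below the 21.3% of all genes called at 0-1h. The receptor gene N was at 33830, 34420 and 30960 in orb2-delta-zz, against 41880, 40350 and 43410 in wild type, without overlap (log2 fold change -0.34, SE 0.0591, limma adjusted p = 0.00303), and the call held in all 13 alternative fits. Nct, which encodes Nicastrin, a subunit of the gamma-secretase that cleaves Notch, was called lower in the first collection (-0.23 on the log2 scale, limma adjusted p = 0.0183) and again at 1-2h (-0.43, limma adjusted p = 0.0346). At 0-1h its call was lost on TPM and after removal of replicate 1 of either genotype. At 1-2h it was lost on TPM and after removal of each library except wild type replicate 2.

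At 1-2h 29 genes of the list were tested and 2 called, again lower, with a median of 0.05, against 7.37% of all genes called. The other was mib1, a ubiquitin ligase that, like Neuralized, drives ligand endocytosis, at 2278, 2202 and 2127 in orb2-delta-zz, against 2631, 3234 and 2916 in wild type (log2 fold change -0.41, limma adjusted p = 0.0489). It lost its call on TPM, with a filter at 50, under the replicate block, and after removal of wild type replicate 3 or of each orb2-delta-zz library. At 2-3h limma called 0 of 30, where 3.28% of all genes were called, with a median of 0.04. At an unadjusted p under 0.05 it was 9 of 30, against 16.3% of all genes. Without wild type replicate 1 limma called 7, in a fit that called 1666 genes in place of 296. The corepressor genes gro and CtBP, whose products E(spl) proteins recruit or work beside, did not pass at any time point. At 0-1h gro averaged 191 TPM in orb2-delta-zz and 186 TPM in wild type, and CtBP averaged 286 TPM in orb2-delta-zz and 293 TPM in wild type.

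A list of 12 transcription factors was drawn up as early embryo regulators of Notch targets, and whether each acts on these genes at these ages was not tested. At the successive time points 21.3%, 7.37% and 3.28% of all genes were called, and 10.1%, 3.85% and 1.73% were called lower. Of the 10, 12 and 12 regulators tested, limma called 1 at each time point, lower in each case. At 0-1h it was Trl, the GAGA factor (-0.13 on the log2 scale, limma adjusted p = 0.0336), lost on TPM, under the replicate block and in 5 of the 6 fits that left out 1 library, all but that without wild type replicate 3. At 1-2h and 2-3h it was ase, a proneural gene of neural stem cells. It had normalized counts of 10.6, 4.69 and 7.96 in orb2-delta-zz at 1-2h, against 41.1, 36.7 and 39.2 in wild type (log2 fold change -2.25, SE 0.389, limma adjusted p = 0.0143). At 2-3h it was at 35.2, 62.4 and 44.9 in orb2-delta-zz, against 131, 153 and 107 in wild type (log2 fold change -1.46, SE 0.279, limma adjusted p = 0.0451). Its groups did not overlap at either time, as was the case with orb2-delta-zz below for 16.3% of all genes tested at 1-2h and 11.4% at 2-3h. The call at 1-2h was lost without orb2-delta-zz replicate 2 or 3 or wild type replicate 3, and that at 2-3h with a filter at 50, trimmed mean factors or the replicate block, and after removal of each library except wild type replicates 1 and 3.

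Beside E(spl)mgamma-HLH and ase, the older embryo list at 2-3h, 10 of 16 genes listed, summed to between 199.5 and 243 TPM in orb2-delta-zz and between 312 and 390.3 TPM in wild type. Obp99a made up much of it and was called lower (log2 fold change -1.10, limma adjusted p = 0.0102). That call was lost under the replicate block and after removal of each library except wild type replicates 1 and 3. The list's median deviation was -1.32, 1.22 and -1.69 in orb2-delta-zz replicates 1 to 3, against 0.34, -0.55 and 0.44 in wild type. Of its 10 genes tested, 7 had a negative and 3 a positive log2 fold change. The neuron marker elav at 2-3h was at 3753, 4080 and 4159 in orb2-delta-zz, against 5040, 3180 and 2377 in wild type, without a call (log2 fold change 0.25, limma adjusted p = 0.691). The part of older embryos in the values of E(spl)mgamma-HLH and ase was not tested.

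Genes outside the family that followed it most closely at 2-3h were sought among 7647 genes, by Pearson's r with the mean profile of the 8 members over the 6 libraries. The 5 closest were LanB2 (r = 0.9945), CG13671 (0.9941), 140up (0.990), Rab6 (0.989) and lncRNA:CR45181 (0.988). LanB2 encodes a laminin chain of the basement membrane and Rab6 a small GTPase of the Golgi. LanB2 averaged 28.8 TPM in orb2-delta-zz and 31.3 TPM in wild type. The 6 libraries share scaling, and wild type replicates 1 and 3 lie on opposite sides of the wild type mean for all 8 members. Over these libraries 210 genes had an r above 0.9, so these names describe a ranking only.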

How the data were processed

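Total RNA of embryos was extracted with TRIzol, depleted of ribosomal RNA and made into directional libraries, per the labels' protocols. Trim Galore 0.6.5, Salmon 1.9.1 and DESeq2 1.42.1 are named in the submitters' processing notes; no source used here names the genome build, annotation or filter. The authors deposited, per time point, normalized counts (a signal per gene, scaled within the 6 libraries) and TPM. At most 71.0% of low values came out as whole reads (within 0.1), below the 95% needed for a count test. Genotypes were compared with limma 3.58.1 (trend) in R 4.3.3 on log2(normalized count + 1) over the whole table. Genes needed a mean of 10 or more, and calls an adjusted p (Benjamini-Hochberg) under 0.05; folds on this scale understate changes of low genes. Time points were joined in a 12-library fit with a genotype by time term. The code was tested on simulated data. The family, lists and tests were chosen with earlier results of these data known. Genes outside the family are those called, 2 of highest level per list, and the 5 most alike at 2-3h; E(spl)mbeta-HLH, E(spl)m3-HLH and the uncalled times of E(spl)mgamma-HLH were added after their values were seen. Same-numbered replicates of the genotypes did not deviate together at 0-1h or 2-3h (r of -0.342 to 0.038). At 1-2h r was 0.203, 0.221 and 0.082, not all above 0.1, so no block was used there either.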

Additional observations from a re-analysis of the deposited data

Results flagged for a closer look

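The genotype effect differed between time points for 15 of 7533 genes for 1-2h minus 0-1h, 98 of 7482 for 2-3h minus 0-1h and 18 of 8015 for 2-3h minus 1-2h, by a limma test of the difference itself, and no family member was among them. Without wild type replicate 1 of 2-3h the 98 became 1527 and the 18 became 338, and 3 members, Brd, Tom and Ocho, were then among those called for 2-3h minus 0-1h.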

How the results depend on the processing

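Tom at 0-1h and N at 0-1h passed in all 13 alternative fits that gave a p. Of the members' single values, 261 of the alternative log2 fold changes and 304 of the alternative differences between time points kept their direction and side of the threshold. On TPM 3 members were called at 0-1h, 1 Notch pathway gene and 0 regulators at 0-1h, 0 Notch pathway genes at 1-2h, and 6 genes for 1-2h minus 0-1h; E(spl)m4-BFM at 1-2h became 0.021 and the difference of E(spl)m7-HLH for 1-2h minus 0-1h became -0.28 (-0.26 with a pseudocount of 10). At a threshold of 0.1 the fits called 3 members, 4 Notch pathway genes and 3 regulators at 0-1h, 1012 genes, 5 Notch pathway genes and 2 other complex genes at 1-2h, and 508 genes and 1 Notch pathway gene at 2-3h. With a filter at 50 they called 0 other complex genes, 1 Notch pathway gene and 0 regulators at 1-2h and 0 regulators at 2-3h, and with trimmed mean factors 0 regulators at 2-3h. With separate spreads 28 genes were called for 2-3h minus 1-2h. The replicate numbers pair no samples by the labels; at 1-2h each library correlated best with its own number (r of 0.203, 0.221 and 0.082). With the replicate number as a block the fits called 0 regulators at 0-1h, 0 members (E(spl)m7-HLH at an adjusted p of 0.0528) and 1 Notch pathway gene at 1-2h, 55 genes and 0 regulators at 2-3h, and 6, 45 and 0 genes for the differences 1-2h minus 0-1h, 2-3h minus 0-1h and 2-3h minus 1-2h. Leaving out 1 library gave 1 member at 0-1h, 0 to 5 at 1-2h and 0 to 1 at 2-3h, and 1096 to 1624, 203 to 1261 and 77 to 1666 genes. It gave 0 to 1 other complex genes at 1-2h and 2-3h; 1 to 3, 0 to 5 and 0 to 7 Notch pathway genes; and 0 to 2, 0 to 1 and 0 to 4 regulators. For the differences it gave 8 to 40 genes (1-2h minus 0-1h), 63 to 1527 with 0 to 3 members (2-3h minus 0-1h) and 6 to 338 (2-3h minus 1-2h). Directions turned only in values that had not passed: E(spl)m4-BFM (-0.38 to 0.13) and BobA (-0.18 to 0.50) at 1-2h, E(spl)m5-HLH (-0.41 to 0.17) and Ocho (-0.12 to 0.41) at 2-3h, and the differences of E(spl)m7-HLH (-0.43 to 1.06) and E(spl)m5-HLH (-0.45 to 0.34) for 1-2h minus 0-1h and of E(spl)m8-HLH (-0.12 to 1.03) and E(spl)m4-BFM (-0.32 to 0.19) for 2-3h minus 1-2h. The cause was not tested. Depth is unknown, and members under about 50 normalized counts are the least certain.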
